A study of Homo sapiens with 24 samples.

Results

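The genes examined were TNFSF10, which encodes the death ligand TRAIL, the genes of its 4 cell surface receptors (TNFRSF10A, TNFRSF10B, TNFRSF10C and TNFRSF10D), and CASP8, CFLAR, XIAP and XAF1, which act below or beside those receptors. They are 9 of the 60609 gene rows in the table and were picked by symbol, with the response of these libraries to interferon already known. The values behind that choice are the differences between interferon and mock libraries. Those differences are therefore given as a description without a test, and tests are given for siRNA, for time and for the interactions. The interactions are built from those same differences, so their p-values are not free of the choice of genes. A gene entered the fit where it reached 1 TPM (a transcript level per length, scaled to the same total in each library) in at least 3 libraries, which 16062 genes did. This held for 8 of the 9 genes. TNFRSF10C reached 1 TPM in 2 libraries and was not tested. XAF1 entered only through its 12 interferon libraries, and TNFSF10 reached 1 TPM in 17 libraries, of which 5 were mock.

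Polyadenylated RNA was measured in A549, an established human lung adenocarcinoma line. All cells were transfected for 48 h, either with an siRNA pool against BOP1, a factor in the maturation of the large ribosomal subunit (siBOP1), or with siRNA against firefly luciferase, a gene that human cells lack (siFLuc). They then received IFN-B (interferon beta, IFN from here on) at 1000 units/mL or a mock treatment, for 8 h or 12 h. The 8 groups were thus siFLuc mock, siFLuc IFN, siBOP1 mock and siBOP1 IFN at each time, with 3 libraries each and 24 in all. The siRNA is transient and its target was lowered, not lost, and no untransfected group was analysed here. The labels do not say whether the libraries of a group came from separate cultures, so p-values measure the spread between these libraries, which may be technical. In each group the columns carry the numbers 1, 2 and 4. The first 2 numbers match labelled replicates, and the libraries numbered 4 are placed by group alone.

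BOP1 lay between 32.4 and 78.8 TPM in the 12 siFLuc libraries and between 10.04 and 19.5 TPM in the 12 siBOP1 libraries. All 8 epithelial and A549 markers were expressed in every library, KRT8 at 2086 to 3803 TPM and EPCAM at 1.92 to 5.48 TPM. The summed level of 8 markers of leukocytes, endothelium and fibroblasts was 7.25 to 23.2 TPM, nearly all of it COL1A1 and CD14. CD3E was listed at 0 in all 24 libraries and PTPRC in 20. Between 13844 and 14509 genes reached 1 TPM in a library. The depth behind the TPM values is unknown, and no counting interval is given. The libraries numbered 4 stood apart from the other 2 of their group, and differences that rest on them are given with and without them.

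TRAIL is a trimeric ligand of the TNF superfamily. On binding TNFRSF10A (DR4) or TNFRSF10B (DR5) it draws the adaptor FADD and the protease caspase-8, encoded by CASP8, into a signalling complex in which caspase-8 activates itself and starts the caspase cascade. CFLAR encodes c-FLIP, a relative of caspase-8 whose forms compete for that complex. TNFRSF10C (DcR1) and TNFRSF10D (DcR2) bind TRAIL but lack a working death domain, and are called decoy receptors for that reason. XIAP blocks caspases directly, and XAF1 is known as a XIAP-binding factor. TNFSF10 and XAF1 are textbook interferon-stimulated genes, transcribed through interferon-responsive promoter elements.

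Promoter windows were read for TNFSF10, CASP8 and XAF1, because these hold an interferon-type motif at a gene that was higher in the IFN libraries. RefSeq windows (GRCh38.p14, from 250 bases before to 50 bases after an annotated start) were at hand for 5 of the 9 genes, 13 windows in all. Searched on both strands were the core of the interferon-stimulated response element (ISRE: GAAA, a pair of any bases, then GAAA), the interferon-gamma activated site (GAS, TTCNNNGAA), and, added after the sequences were seen, a more closely spaced form (GAAANGAAA). No match of one motif overlapped a match of another in these windows. Capitals mark the matches, which may lie on either strand, and each sequence is written 5′ to 3′ on the strand of its gene.
TNFSF10, chr3:172523381-172523680, minus strand: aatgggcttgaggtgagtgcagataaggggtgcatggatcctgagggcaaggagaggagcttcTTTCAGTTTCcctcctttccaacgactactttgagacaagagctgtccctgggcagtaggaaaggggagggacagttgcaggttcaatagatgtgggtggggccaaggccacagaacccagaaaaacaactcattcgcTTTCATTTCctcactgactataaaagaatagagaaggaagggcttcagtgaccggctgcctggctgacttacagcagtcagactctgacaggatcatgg
CASP8, chr2:201233213-201233512, plus strand: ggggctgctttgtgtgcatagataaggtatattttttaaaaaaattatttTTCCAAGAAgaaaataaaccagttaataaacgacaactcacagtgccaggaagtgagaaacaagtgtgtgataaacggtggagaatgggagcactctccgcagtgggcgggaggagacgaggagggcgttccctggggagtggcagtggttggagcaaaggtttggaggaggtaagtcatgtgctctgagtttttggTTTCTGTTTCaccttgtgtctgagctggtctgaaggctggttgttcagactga
XAF1, chr17:6755796-6756095, plus strand: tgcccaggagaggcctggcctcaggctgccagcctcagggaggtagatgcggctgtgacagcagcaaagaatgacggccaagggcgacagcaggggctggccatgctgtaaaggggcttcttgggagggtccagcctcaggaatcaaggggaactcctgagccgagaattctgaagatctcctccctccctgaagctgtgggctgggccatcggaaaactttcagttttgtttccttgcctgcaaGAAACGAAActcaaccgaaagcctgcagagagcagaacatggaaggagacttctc
In TNFSF10 the ISRE core spans 187 to 178 bases before the start, and the closer form 49 to 41 bases before it. In CASP8 the ISRE core runs from 3 bases before to 6 bases after the start, with a GAS match 200 to 192 bases before it. In XAF1 the closer form runs from 5 bases before to 3 bases after the start. The other 10 windows, which belong to CASP8, CFLAR, XAF1 and XIAP, held none of the 3 motifs. Among all 35116 windows of the same length, 3.57% held the ISRE core, 7.66% GAS and 3.12% the closer form. The matches are a description of letters, and binding was not measured.

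TNFSF10, the ligand gene, went from 0.158 to 2.14 TPM in mock libraries to 83.5 to 162.4 TPM in IFN libraries. For the siFLuc groups at 8 h the mock libraries numbered 1, 2 and 4 held 0.766, 0.954 and 0.158 TPM and the IFN libraries 127.8, 119.5 and 83.5 TPM. With siFLuc at 12 h the mock libraries held 2.14, 1.48 and 0.413 TPM and the IFN libraries 162.4, 154.3 and 111.8 TPM. In each IFN group the library numbered 4 was the lowest, yet every IFN library lay far above every mock library. At 8 h with siBOP1 the mock libraries held 0.796, 0.954 and 0.974 TPM and the IFN libraries 115.6, 125.4 and 92.1 TPM. With siBOP1 at 12 h the mock libraries held 1.35, 1.43 and 1.61 TPM and the IFN libraries 147.6, 147.9 and 103.8 TPM. The siBOP1 and siFLuc libraries of TNFSF10 overlapped under both treatments and at both times. As log2(TPM + 1), IFN minus mock, TNFSF10 differed by 6.11 at 8 h and 6.00 at 12 h with siFLuc and by 5.87 and 5.75 with siBOP1 (SE 0.25 each, n = 3 against 3). The added 1 TPM compresses this low gene: the ratio of mean TPM was 176, 106, 122 and 91.0 in the same order. In bulk RNA, more cells expressing a gene and more RNA per cell cannot be told apart, here or below.

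**Figure D1:**
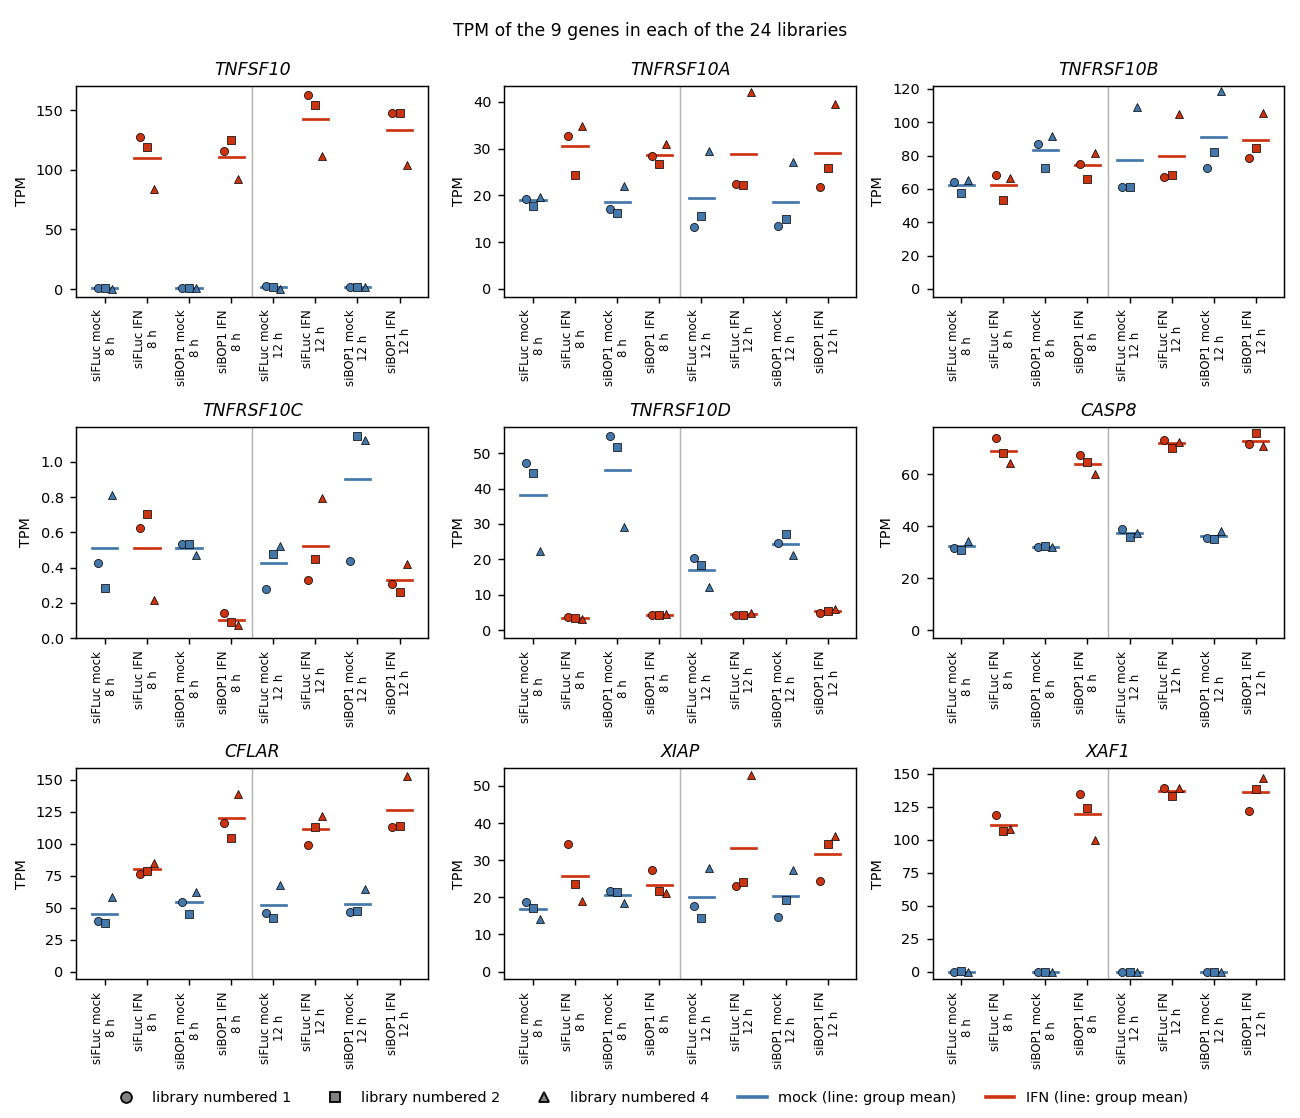
TPM (vertical axes, linear, a different range in each panel) of the 9 genes in each of the 24 libraries, by group along the horizontal axis. Circles, squares and triangles are the libraries numbered 1, 2 and 4, blue is mock, red is IFN, and lines are group means. TNFSF10, CASP8, CFLAR and XAF1 lie higher in every IFN library than in the mock libraries of the same siRNA and time, TNFRSF10D lies lower, and TNFRSF10C does not exceed 1.15 TPM.

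The 4 receptor genes lie side by side on chromosome 8 (GRCh38, GENCODE 29, 23020133 to 23225126, within 204994 bases). TNFRSF10B (23020133 to 23069179), TNFRSF10D (23135588 to 23164030) and TNFRSF10A (23190452 to 23225126) are on the minus strand, and TNFRSF10C (23102590 to 23117437) is on the plus strand. The genes are related in sequence, and how reads shared between genes were assigned is not given in the sources used here. Over all stretches of 31 bases in their GENCODE transcripts, 3.22% in TNFRSF10A, 3.32% in TNFRSF10B and 4.36% in TNFRSF10D also occur in another gene, against 38.3% in TNFRSF10C. The overlapping noncoding gene AC107959.4 alone shares 25.9% of the TNFRSF10C stretches, so the level of TNFRSF10C is the least certain of the 4. TNFRSF10A overlaps TNFRSF10A-AS1 and TNFRSF10B overlaps RHOBTB2 on the opposite strand, as CFLAR does CFLAR-AS1 and XIAP does XIAP-AS1. The libraries were stranded, but whether the counting used strand is not given, so reads of such partners may be mixed.

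TNFRSF10B, the DR5 gene, was the most abundant receptor transcript in every library, at 53.4 to 118.7 TPM, with mock and IFN libraries intermingled. For the siFLuc groups at 8 h its mock libraries held 64.0, 57.4 and 65.1 TPM and its IFN libraries 68.1, 53.4 and 66.3 TPM. The log2 differences were 0.005 and 0.08 with siFLuc at 8 h and 12 h and -0.17 and -0.003 with siBOP1 (SE 0.21 each), with no direction shared by the 4. Mock and IFN libraries overlapped in all 4 comparisons. At 12 h the libraries numbered 4 held 104.7 to 118.7 TPM of TNFRSF10B and those numbered 1 and 2 held 61.0 to 84.4 TPM.

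TNFRSF10A, the DR4 gene, was less abundant than TNFRSF10B and moderately higher under IFN. With siFLuc at 8 h its mock libraries held 19.3, 17.8 and 19.7 TPM and its IFN libraries 32.6, 24.4 and 34.9 TPM. At 8 h with siBOP1 the values were 17.1, 16.3 and 22.1 TPM in mock and 28.4, 26.8 and 31.1 TPM in IFN libraries. At 8 h the groups did not overlap. At 12 h they did, because the mock libraries numbered 4 (29.4 TPM with siFLuc and 27.1 TPM with siBOP1) exceeded the IFN libraries numbered 1 and 2 (21.8 to 25.8 TPM). Each IFN library was nonetheless higher than the mock library of its number, by 1.37 to 1.78 times over the 12 such pairs. The log2 differences were 0.65 and 0.57 with siFLuc and 0.62 and 0.64 with siBOP1 (SE 0.29 each). Without the libraries numbered 4 these were 0.58, 0.60, 0.69 and 0.70.

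TNFRSF10D, the DcR2 gene, was lower under IFN in all 4 comparisons. With siFLuc at 8 h the mock libraries numbered 1, 2 and 4 held 47.3, 44.4 and 22.5 TPM and the IFN libraries 3.64, 3.56 and 3.20 TPM. For the siBOP1 groups at 8 h the mock libraries held 54.8, 51.7 and 29.2 TPM and the IFN libraries 4.28, 4.27 and 4.72 TPM. The mock libraries numbered 4 had the lowest values of their groups, and the IFN libraries of a group lay close together. With siFLuc at 12 h the mock libraries held 20.3, 18.4 and 12.3 TPM and the IFN libraries 4.43, 4.37 and 4.79 TPM. At 12 h with siBOP1 the mock libraries held 24.6, 27.2 and 21.3 TPM and the IFN libraries 4.83, 5.57 and 6.08 TPM. No IFN library of any siRNA or time reached the lowest mock library. The log2 differences were -3.06 at 8 h and -1.68 at 12 h with siFLuc and -3.04 and -1.96 with siBOP1 (SE 0.24 each). With the libraries numbered 1 and 2 alone they were -3.35, -1.91, -3.36 and -2.12 in the same order.

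TNFRSF10C, the DcR1 gene, was near the lower end of the scale, at 0.074 to 1.15 TPM. With siBOP1 its mock libraries held 0.533, 0.532 and 0.474 TPM at 8 h and its IFN libraries 0.145, 0.094 and 0.074 TPM. With siFLuc at 8 h the mock libraries (0.429, 0.284 and 0.815 TPM) and the IFN libraries (0.624, 0.702 and 0.216 TPM) overlapped. With so low a level, a large shared part and no test, no direction is read from these values.

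Since TPM is per length, the receptor transcripts of a library can be added. At 8 h with siFLuc the decoy genes, TNFRSF10C and TNFRSF10D together, made up 31.8 ± 8.84% of the receptor TPM in mock cells and 4.17 ± 0.97% under IFN (SD, n = 3 each). With siBOP1 at 8 h the decoy shares were 30.8 ± 8.84% and 4.23 ± 0.23%. At 12 h they were 16.7 ± 7.11% in mock and 4.59 ± 0.80% in IFN libraries with siFLuc, and 19.5 ± 5.34% and 4.72 ± 0.39% with siBOP1 (SD, n = 3 each). The mock libraries numbered 4 had the lowest decoy shares of their groups, 21.6% and 20.7% at 8 h (siFLuc, then siBOP1) and 8.50% and 13.3% at 12 h, against 19.8% to 37.3% in the mock libraries numbered 1 and 2. The decoy share under IFN was 3.26% to 5.19% in all 12 libraries. The DR4 share moved the other way, from 15.9 ± 1.96% to 31.4 ± 1.85% with siFLuc at 8 h and from 12.6 ± 2.49% to 26.8 ± 0.70% with siBOP1 at 8 h (SD, n = 3 each). The DR5 share at 8 h rose too, from 52.3 ± 6.89% to 64.4 ± 0.94% with siFLuc and from 56.6 ± 6.52% to 69.0 ± 0.93% with siBOP1 (SD, n = 3 each). At 12 h the DR5 share was 66.8 ± 4.56% in mock and 70.5 ± 1.53% in IFN libraries with siFLuc. With siBOP1 at 12 h it was 67.1 ± 2.98% and 72.3 ± 2.455% (SD, n = 3 each). It rose at 12 h in the libraries numbered 1 and 2. In those numbered 4 it fell, from 72.05% to 68.75% (siFLuc) and from 70.54% to 69.68% (siBOP1). Shares add up to a fixed whole, so the fall of the decoy share alone raises the others. The summed receptor level at 8 h was 119.6 ± 11.5 TPM in mock and 97.2 ± 13.1 TPM in IFN libraries with siFLuc, and 147.9 ± 10.04 and 107.4 ± 10.3 TPM with siBOP1 (SD, n = 3 each). At 12 h it was 113.9 ± 32.4 and 114.0 ± 33.2 TPM with siFLuc and 134.9 ± 29.8 and 124.5 ± 24.2 TPM with siBOP1 (SD, n = 3 each), and the groups overlapped. These shares rest on the same IFN differences as above and carry no test. Transcript shares say nothing of receptor protein at the cell surface, which was not measured.

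**Figure D2:**
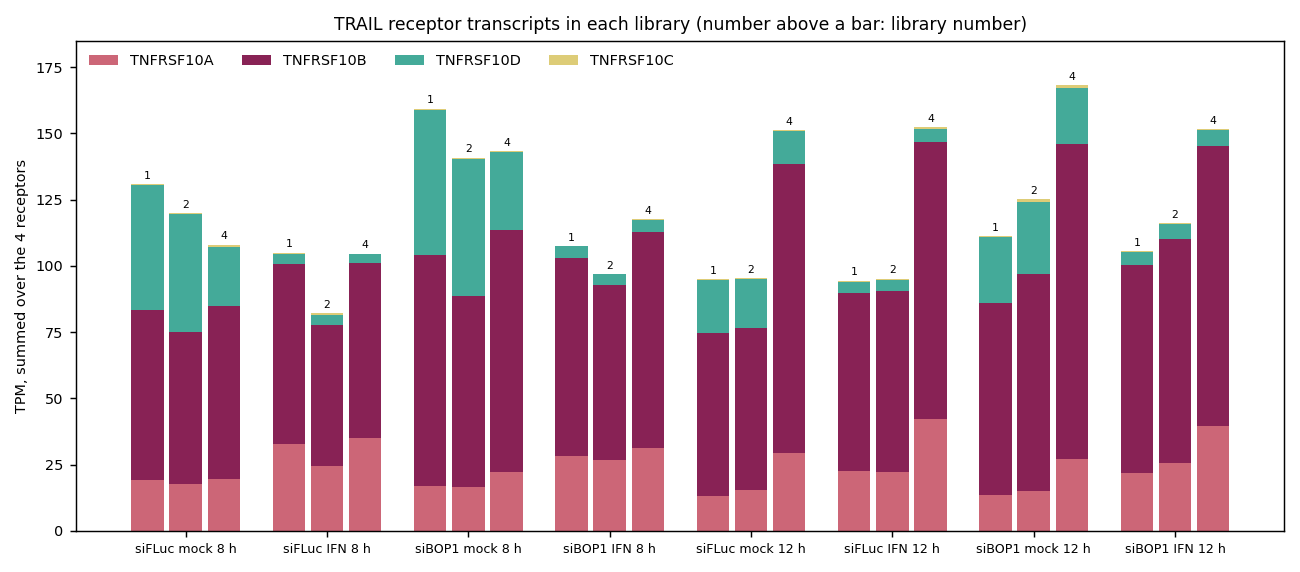
Stacked bars of TPM, on a linear axis from 0, for the 4 TRAIL receptor genes in each of the 24 libraries, by group, with the library number above each bar. TNFRSF10D makes up 20.4% to 37.04% of the bar in mock libraries at 8 h and 3.06% to 4.404% in IFN libraries at 8 h, and TNFRSF10B is the largest part of every bar.

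CASP8 and CFLAR lie on the plus strand of chromosome 2 (GRCh38, GENCODE 29), CFLAR at 201116104 to 201176687 and CASP8 at 201233443 to 201287711, with CASP10 between them. CASP8 had the smallest standard errors of the 8 tested genes. For the siFLuc groups at 8 h its mock libraries held 31.7, 30.7 and 34.5 TPM and its IFN libraries 74.0, 68.2 and 64.5 TPM. Over all groups CASP8 was at 30.7 to 38.8 TPM in mock and at 60.2 to 76.0 TPM in IFN libraries, with no overlap. The log2 differences were 1.07 and 0.93 with siFLuc and 0.97 and 0.99 with siBOP1 (SE 0.075 each).

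CFLAR, the c-FLIP gene, was also higher under IFN. With siFLuc at 8 h its mock libraries held 39.3, 37.7 and 58.4 TPM and its IFN libraries 76.4, 78.6 and 84.7 TPM. At 8 h with siBOP1 it was at 54.6, 45.3 and 62.5 TPM in mock and at 116.3, 104.2 and 139.1 TPM in IFN libraries. The library numbered 4 was the highest of each CFLAR group, and within each siRNA and time no IFN library overlapped the mock libraries. At 12 h CFLAR was at 42.02 to 67.7 TPM in mock and at 99.01 to 153.3 TPM in IFN libraries over both siRNAs. The log2 differences were 0.84 and 1.12 with siFLuc and 1.14 and 1.25 with siBOP1 at 8 h and 12 h (SE 0.19 each). CFLAR produces long and short forms with different effects on caspase-8, which a gene-level TPM does not separate. The ratio of CFLAR to CASP8 TPM with siFLuc at 8 h was 1.24, 1.23 and 1.69 in mock and 1.03, 1.15 and 1.31 in IFN libraries. With siBOP1 at 8 h this ratio was 1.71, 1.39 and 1.95 in mock and 1.73, 1.61 and 2.31 in IFN libraries. At 12 h it was 1.17, 1.17 and 1.81 in mock and 1.35, 1.61 and 1.68 in IFN libraries with siFLuc, and 1.32, 1.35 and 1.69 in mock and 1.58, 1.498 and 2.16 in IFN libraries with siBOP1. Mock and IFN ratios overlapped in all 4 comparisons. CFLAR thus exceeded CASP8 in all 24 libraries on this scale.

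XAF1 (chromosome 17, 6755447 to 6775647, plus strand, GRCh38, GENCODE 29) went from 0 to 0.133 TPM in the 12 mock libraries to 99.97 to 146.8 TPM in the 12 IFN libraries. For the siFLuc groups at 8 h its mock libraries held 0.04, 0.133 and 0.024 TPM and its IFN libraries 119.1, 106.5 and 107.8 TPM. With siBOP1 at 12 h XAF1 was listed at 0 in the mock libraries numbered 1 and 4 and at 0.056 TPM in that numbered 2, and the IFN libraries held 121.9, 138.7 and 146.8 TPM. The log2 differences on the (TPM + 1) scale were 6.72 and 7.04 with siFLuc and 6.85 and 7.07 with siBOP1 (SE 0.11 each). They depend on the added 1 TPM, since the mock level is so low, and with 0.1 TPM added they were 9.45 to 10.2.

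XIAP (chromosome X, 123859724 to 123913979, plus strand, GRCh38, GENCODE 29), the caspase inhibitor, was at 14.1 to 28.0 TPM in mock and at 18.9 to 52.8 TPM in IFN libraries. At 8 h with siFLuc its mock libraries held 18.9, 17.2 and 14.1 TPM and its IFN libraries 34.5, 23.7 and 18.9 TPM. With siBOP1 at 8 h they held 21.8, 21.5 and 18.5 TPM and 27.3, 21.7 and 21.2 TPM, and the groups overlapped. Mock and IFN libraries of XIAP overlapped at 12 h with both siRNAs too, and not at 8 h with siFLuc. The siFLuc IFN 12 h library numbered 4, at 52.8 TPM, stood above the other 2 of its group, at 23.1 and 24.2 TPM. The XIAP log2 differences were 0.56 and 0.65 with siFLuc and 0.17 and 0.63 with siBOP1 (SE 0.29 each), and 0.64, 0.53, 0.16 and 0.74 in the same order with the libraries numbered 1 and 2 alone. The ratio of XAF1 to XIAP TPM was at most 0.0077 in mock libraries and 2.64 to 6.03 in IFN libraries.

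The median IFN difference over all genes tested was -0.09 (8 h) and -0.06 (12 h) with siFLuc and -0.14 (8 h) and -0.08 (12 h) with siBOP1. The TNFRSF10B differences, 0.005, 0.08, -0.17 and -0.003 in the same order, were about that size or smaller. With siFLuc their sign was opposite to that of the median.

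**Figure D3:**
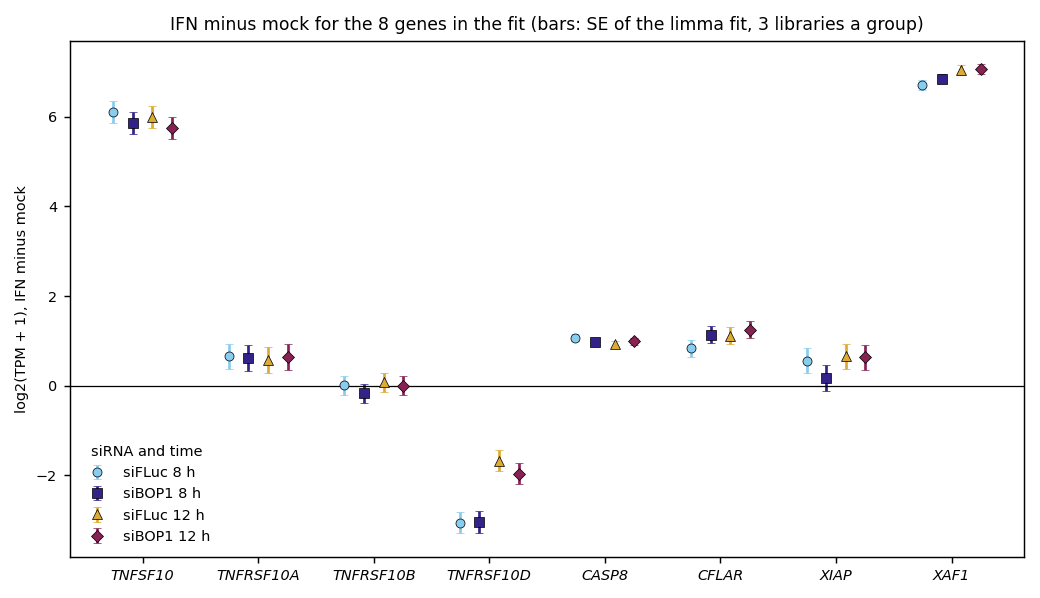
Difference in log2(TPM + 1) between IFN and mock libraries (vertical axis) for the 8 genes in the fit, with circles and squares for siFLuc and siBOP1 at 8 h and triangles and diamonds for siFLuc and siBOP1 at 12 h. Bars are the SE of the limma fit with 3 libraries a group. XAF1 and TNFSF10 lie between 5.75 and 7.07, CASP8 and CFLAR between 0.84 and 1.25, and TNFRSF10D between -3.06 and -1.68, nearer to 0 at 12 h.

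The first tested question was whether lowering BOP1 altered the level of these genes. None of the 8 passed in any of the 4 siBOP1 against siFLuc comparisons (limma adjusted p at least 0.429 in mock cells at 8 h, 0.362 in mock cells at 12 h, 0.137 under IFN at 8 h and 0.902 under IFN at 12 h). Over all genes, 2.16%, 1.6%, 2% and 0.66% were called in these comparisons. XAF1, at 0 to 0.133 TPM in mock libraries, entered the fit through IFN libraries only. A fall with siBOP1 in mock cells could therefore not be seen for XAF1. TNFSF10, at 0.158 to 2.14 TPM in mock libraries, left little more room. The mock results of both genes say little on a fall with siBOP1. The differences of the 8 genes ran from -0.04 to 0.42, -0.05 to 0.52, -0.10 to 0.57 and -0.10 to 0.23 on the log2 scale. At an unadjusted p under 0.05 stood TNFRSF10D in mock cells at 12 h and CFLAR under IFN at 8 h, which are described with TNFRSF10B below. Of all 16062 genes, 2076, 2051, 2191 and 1444 stood there in the 4 comparisons.

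TNFRSF10B was higher with siBOP1 in 12 of 12 pairs of libraries with the same number, by 0.014 to 0.49 on the log2 scale. The labels do not say that the numbers pair libraries, so these are not 12 independent replicates. The share of all genes with such a run is not given, and the count is a description. In mock cells at 8 h it was at 64.0, 57.4 and 65.1 TPM with siFLuc and at 87.0, 72.3 and 91.6 TPM with siBOP1, without overlap. The log2 difference there was 0.42 (SE 0.21, 95% interval -0.02 to 0.86, limma adjusted p 0.429). In mock cells at 12 h it was 0.26 (SE 0.21, 95% interval -0.18 to 0.70, limma adjusted p 0.682), and the groups overlapped because the libraries numbered 4 (109.0 and 118.7 TPM) stood above the others. With the library number as a block both passed (limma adjusted p 0.00252 at 8 h and 0.0437 at 12 h). Under IFN the TNFRSF10B differences were 0.24 at 8 h and 0.18 at 12 h (SE 0.21 each) and passed with neither fit (limma adjusted p 0.706 and 0.918 without the block, 0.0561 and 0.218 with it). With the libraries numbered 1 and 2 alone the 4 differences were 0.38, 0.33, 0.21 and 0.26 in mock cells at 8 h and 12 h and under IFN at 8 h and 12 h. None of them passed (limma adjusted p 0.126, 0.225, 0.388 and 0.382).

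CFLAR under IFN at 8 h was at 76.4, 78.6 and 84.7 TPM with siFLuc and at 116.3, 104.2 and 139.1 TPM with siBOP1, without overlap. The log2 difference was 0.57 (SE 0.19, 95% interval 0.18 to 0.97, limma adjusted p 0.137), and with the library number as a block the adjusted p was 0.0017. With the libraries numbered 1 and 2 alone it was 0.50 (limma adjusted p 0.0159), in a fit for which the share of all genes called is not given. The other 3 siRNA differences of CFLAR were 0.27 in mock cells at 8 h, 0.04 in mock cells at 12 h and 0.18 under IFN at 12 h (SE 0.19 each), none past the threshold in either fit. Whether siBOP1 changed the IFN difference of CFLAR was tested by the interaction, which was 0.30 at 8 h (SE 0.27, 95% interval -0.26 to 0.86) and 0.13 at 12 h (SE 0.27, 95% interval -0.43 to 0.69), each with a limma adjusted p of 1.

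TNFRSF10D was higher with siBOP1 in 12 of 12 pairs of the same number, by 1.09 to 1.73 times, a count with the same limits as that of TNFRSF10B. Its log2 differences were 0.26 in mock cells at 8 h, 0.52 in mock cells at 12 h, 0.28 under IFN at 8 h and 0.23 under IFN at 12 h (SE 0.24 each). None passed: the limma adjusted p was 0.775, 0.362, 0.689 and 0.902. The block gave no call either (0.508, 0.133, 0.443 and 0.629). Its siFLuc and siBOP1 libraries overlapped in mock cells at 8 h and not in the other 3 comparisons. Of the 8 genes, 1, 1, 2 and 1 did not overlap in the 4 siRNA comparisons in the order above. The share of all genes that did not overlap is not given. Lack of overlap is thus a description, here and for time below. With the block, 8.49%, 7.66%, 8.81% and 3.77% of all genes were called in mock cells at 8 h and 12 h and under IFN at 8 h and 12 h, against 1, 1, 1 and 0 of the 8 genes.

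No siRNA by IFN interaction passed for the 8 genes at 8 h or 12 h, and 0% of all genes passed at either time (limma adjusted p under 0.05). At an unadjusted p under 0.05 stood 353 genes at 8 h and 259 at 12 h. The interactions of the 8 genes ran from -0.39 to 0.30 at 8 h and from -0.29 to 0.13 at 12 h on the log2 scale, with SEs of 0.11 to 0.41. TNFRSF10D had values of 0.02 at 8 h (SE 0.33, 95% interval -0.68 to 0.72) and -0.29 at 12 h (SE 0.33, 95% interval -0.99 to 0.41). Those intervals leave room for changes of the IFN difference by siBOP1 in either direction.

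**Figure D4:**
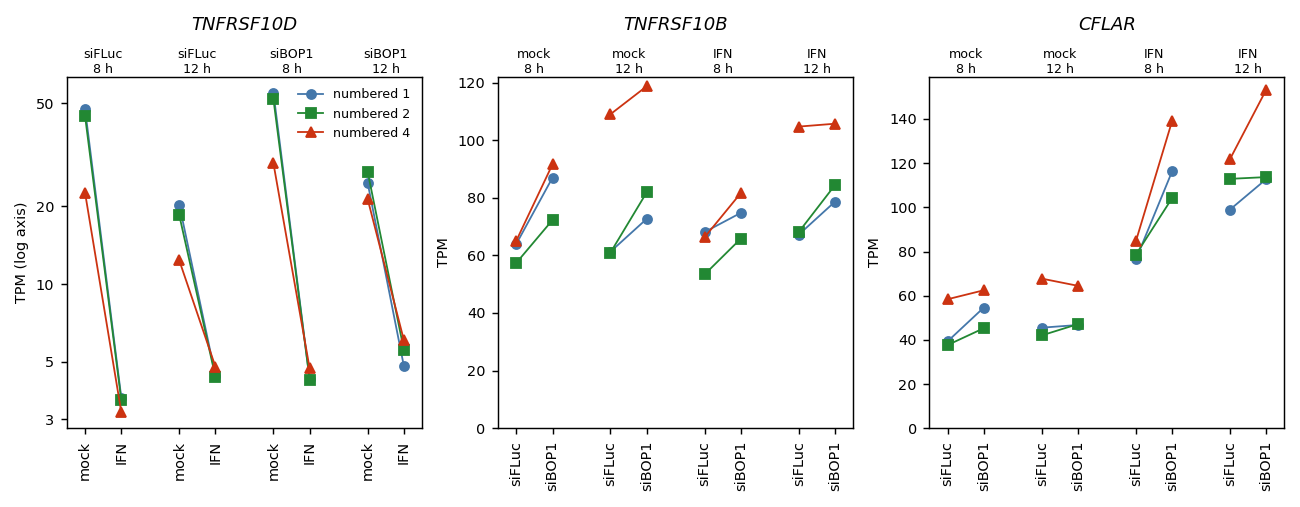
TPM of TNFRSF10D (left, log axis), TNFRSF10B (centre, linear axis from 0) and CFLAR (right, linear axis from 0), with lines joining libraries of the same number. The left panel joins mock to IFN, and the centre and right panels join siFLuc to siBOP1 within a treatment and time. TNFRSF10B is higher with siBOP1 for each number, and the libraries numbered 4 lie apart in mock TNFRSF10D and in TNFRSF10B at 12 h.

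The second tested question was time. TNFRSF10D in mock cells was lower at 12 h than at 8 h, at 12.3 to 20.3 against 22.5 to 47.3 TPM with siFLuc and at 21.3 to 27.2 against 29.2 to 54.8 TPM with siBOP1, without overlap. Under IFN it was slightly higher at 12 h, at 4.37 to 4.79 against 3.20 to 3.64 TPM with siFLuc and at 4.83 to 6.08 against 4.27 to 4.72 TPM with siBOP1. The log2 differences, 12 h minus 8 h, were -1.07 and -0.82 in siFLuc and siBOP1 mock cells (limma adjusted p 0.0791 and 0.19) and 0.31 and 0.26 under IFN (0.493 and 0.62), with an SE of 0.24 each. With the libraries numbered 1 and 2 alone the mock differences were -1.20 and -1.01 and passed (limma adjusted p 0.00012 and 0.000392). The share of all genes called in that fit is not given. These 4 time comparisons were added after the values were seen. None of the 8 genes passed in them with all libraries, against 0.131%, 3.53%, 0.23% and 2.96% of all genes in siFLuc mock, siFLuc IFN, siBOP1 mock and siBOP1 IFN cells. At an unadjusted p under 0.05 stood TNFRSF10D and CASP8 in both mock comparisons, CFLAR and XAF1 under IFN with siFLuc, and CASP8 under IFN with siBOP1. Of all 16062 genes, 2067, 3094, 1549 and 2897 stood there in siFLuc mock, siFLuc IFN, siBOP1 mock and siBOP1 IFN cells. For XAF1 and TNFSF10 the mock comparisons of time have the limit given for siRNA.

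The time by IFN interaction asks whether the IFN difference itself changed from 8 h to 12 h. It is built from the IFN differences known when the genes were chosen, so its p-values are not independent of that choice. For TNFRSF10D it was 1.38 with siFLuc (SE 0.33, 95% interval 0.68 to 2.08, unadjusted p 0.000512) and 1.08 with siBOP1 (SE 0.33, 95% interval 0.38 to 1.78, unadjusted p 0.00428). Neither passed after adjustment over all genes (limma adjusted p 0.747 and 1 without the block, 0.229 and 0.273 with it). With the libraries numbered 1 and 2 alone both did, at 1.43 (limma adjusted p 0.00519) and 1.24 (limma adjusted p 0.0243). The share of all genes called in that fit is not given. In the fit on all libraries without the block, 0.00623% of all genes were called with siFLuc and 0% with siBOP1. There, 575 and 603 genes stood at an unadjusted p under 0.05. The sign was the same with both siRNAs. Mock libraries were at 38.05 ± 13.6 TPM at 8 h and 17.02 ± 4.15 TPM at 12 h with siFLuc, and at 45.2 ± 13.9 and 24.4 ± 2.94 TPM with siBOP1 (SD, n = 3 each). IFN libraries lay between 3.20 and 6.08 TPM at both times. The other 7 genes had no time by IFN interaction past the threshold.

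The other genes of the death receptor and apoptosis machinery were read from 6 lists of 64 genes in all, of which 55 were tested. The lists, too, were chosen with earlier results of these data known. Their IFN counts here and below are therefore a description and no test of enrichment. Of these 55, the siFLuc comparison with IFN called 16 up and 2 down at either time (limma, adjusted p under 0.05). The siBOP1 comparison called 17 up at either time, with 3 down at 8 h and 2 down at 12 h. Among all genes tested, the share called higher was 5.77% (8 h) and 7.06% (12 h) with siFLuc and 5.99% (8 h) and 7.17% (12 h) with siBOP1. The share called lower was 5.07% (8 h) and 6.43% (12 h) with siFLuc and 9.11% (8 h) and 7.58% (12 h) with siBOP1. With the library number as a block within each time, 26, 26, 28 and 30 of the 55 were called with siFLuc (8 h, 12 h) and siBOP1 (8 h, 12 h), beside 21%, 26.9%, 29% and 27.9% of all genes. The median differences of the lists together were 0.005 and 0.15 with siFLuc (8 h, 12 h) and 0.003 and 0.21 with siBOP1, beside the medians of all genes given above.

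Among genes of the death receptor complex, 8, 8, 9 and 8 of 13 were higher under IFN and none lower, with siFLuc at 8 h and 12 h and with siBOP1 at 8 h and 12 h, beside the 5.77% to 7.17% of all genes called higher. The list's median differences were 0.93, 0.76, 0.82 and 0.96. CASP10, the caspase gene that lies between CFLAR and CASP8, rose from 2.18 ± 0.25 to 7.97 ± 1.12 TPM with siFLuc at 8 h (SD, n = 3 each), and its log2 differences were 1.49, 1.39, 1.47 and 1.39 (SE 0.16). TRADD, the adaptor of TNF receptor signalling, rose from 18.3 ± 0.69 to 37.6 ± 3.53 TPM in the same cells, and its 4 differences were 1.00 to 1.49 (SE 0.096). BIRC3, which encodes the ubiquitin ligase cIAP2, rose by 1.20 to 1.82 (SE 0.35). RIPK1, BIRC2, CYLD, RNF31 and RBCK1 were called higher in all 4 comparisons as well. The adaptor gene FADD was called in 1 of the 4, siBOP1 at 8 h, at 0.34 (SE 0.11).

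Of the other death ligand and receptor genes 9 of 13 were tested, and FAS, a death receptor, was the one called, higher in all 4 comparisons at 0.78 to 0.99 (SE 0.16). FASLG, TNF, LTA and the soluble TRAIL receptor gene TNFRSF11B did not reach the level for testing. In the list of caspase and apoptosome genes, ENDOG, a mitochondrial nuclease gene, fell in all 4 (-0.61 to -0.52, SE 0.14). CASP9, the initiator caspase of the apoptosome, passed in none. SEPTIN4, which has a XIAP-binding form, was the one called of 6 tested inhibitor and antagonist genes, at 0.99 to 1.68 (SE 0.25). In the BCL2 family 14 of 17 were tested, of which 3, 3, 3 and 4 were higher and 1 lower in each comparison (the lower gene was BAD in 3 comparisons and BID in the other, both promoters of cell death). The additional higher gene with siBOP1 at 12 h was BCL2A1, an inhibitor of apoptosis. PMAIP1 (NOXA, a BH3-only protein) rose by 1.29 to 1.48 (SE 0.36), MCL1, an inhibitor of apoptosis, by 0.77 to 0.93 (SE 0.13), and BAK1, a pore-forming effector, by 0.51 to 0.89 (SE 0.13). The necroptosis gene MLKL was called higher in all 4 comparisons. ZBP1, a nucleic acid sensor, was listed at 0 in all siFLuc mock libraries and was at 4.58 to 8.13 TPM in siFLuc IFN libraries. As it reached 1 TPM in IFN libraries only, the filter let it in through the group where it is high, and its call among the 55 carries no weight. MLKL, the executor of necroptosis, rose from 27.0 ± 3.17 to 93.2 ± 4.46 TPM with siFLuc at 8 h (SD, n = 3 each), and RIPK3 did not reach the level for testing.

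**Figure D5:**
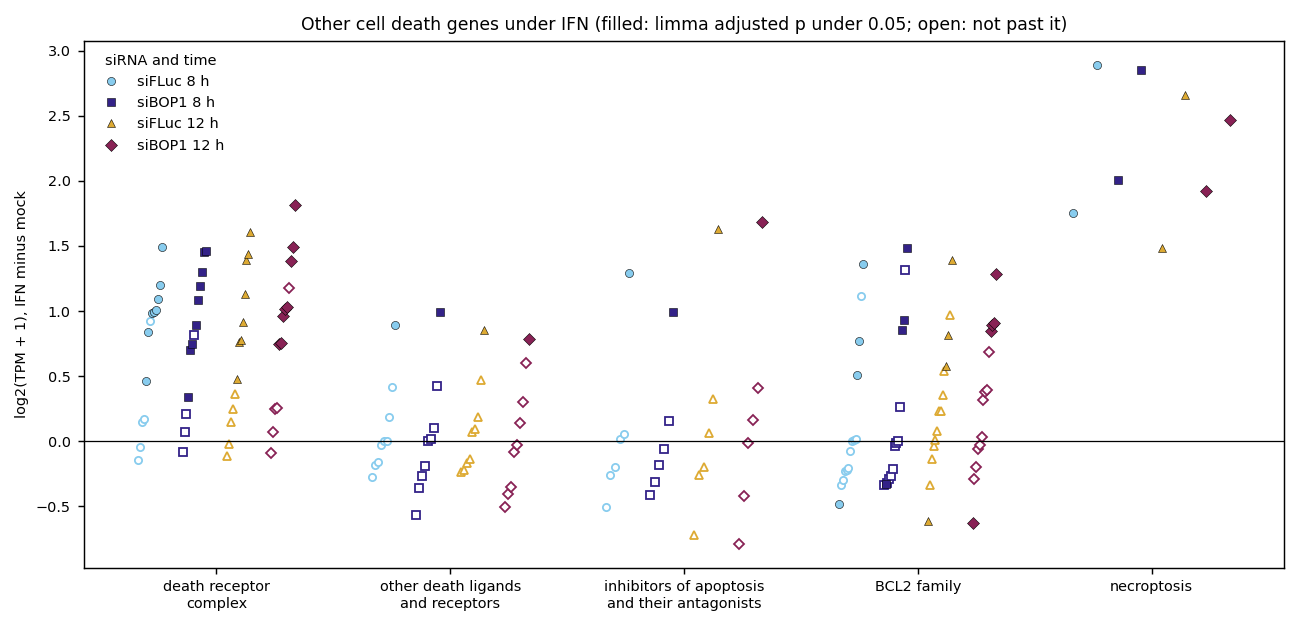
Difference in log2(TPM + 1) between IFN and mock libraries (vertical axis) for the tested genes of 5 of the lists (horizontal axis; the caspase and apoptosome list is not drawn), with 1 symbol per gene and comparison, filled where the limma adjusted p is under 0.05. In the death receptor complex 8 or 9 of 13 symbols are filled and above 0 in each comparison.

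Between siBOP1 and siFLuc, 0 of these 55 genes were called in mock cells at 8 h, 2 in mock cells at 12 h, 2 under IFN at 8 h and 0 under IFN at 12 h, beside 2.16%, 1.6%, 2% and 0.66% of all genes. TRADD was higher with siBOP1 under IFN at 8 h, at 54.1 ± 2.004 against 37.6 ± 3.53 TPM (SD, n = 3 each; log2 difference 0.52, SE 0.096, limma adjusted p 0.00564). DFFA, which encodes the inhibitor and chaperone of the apoptotic nuclease, was lower with siBOP1 in mock cells at 12 h (-0.59, SE 0.15, limma adjusted p 0.0482) and under IFN at 8 h (-0.67, SE 0.15, limma adjusted p 0.0194). MLKL was lower in mock cells at 12 h, at 16.7 ± 1.00 against 26.5 ± 7.55 TPM (SD, n = 3 each; -0.60, SE 0.14, limma adjusted p 0.0313). With any 1 of the 6 libraries compared left out, 0 or 1 of the 55 was called in mock cells at 12 h. Under IFN at 8 h it was 1 or 2. The share of all genes called in those fits is not given. With the library number as a block, 5, 5, 8 and 3 of the 55 were called, beside 8.49%, 7.66%, 8.81% and 3.77% of all genes.

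Over the 24 libraries, the genes whose log2 values followed TNFSF10 most closely were IFIT2 (Pearson r 0.998), STAT2 and SHFL (0.997 each). XAF1 was followed by OAS2 and SLC15A3 (0.999 each) and IFI35 (0.998). TNFRSF10D was followed by PNMA8A (0.97), CERK (0.958) and ST20-AS1 (0.946). The libraries fall into mock and IFN sets, so any gene with a large IFN difference in the same direction gives a high r, and these values are a description with no test.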

How the data were processed

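Polyadenylated RNA of the 24 A549 libraries (8 groups of 3) was available as TPM values, deposited by the authors in 1 table whose columns share the same total. The labels' protocols name TRIzol and column extraction with DNase and a stranded mRNA library kit. The aligner, counting tool, genome build, annotation and any filter are not given in the sources used here. TPM values are shares, so transcripts that gain abundance push the remaining ones down, and reads shared by related or overlapping genes may have been assigned to either.

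The 9 genes, the gene lists, the markers and the tests were chosen with earlier results of these data known. Symbols were joined by Ensembl ID without version. Positions are those of GENCODE 29 (GRCh38), whose ID versions differ from the table's for most of the 9 genes, and promoter sequences are from RefSeq (GRCh38.p14). The test was run on log2(TPM + 1) for genes that reached 1 TPM in 3 or more libraries, using limma (version 3.58.1, under R 4.3.3; intensity trend, 1 mean per group over the 24 libraries, no block). P-values were adjusted by Benjamini-Hochberg within each comparison over all 16062 genes, and called under 0.05. The log2(TPM + 1) scale understates changes of low genes. There were 16 comparisons: IFN, siRNA, the siRNA by IFN and time by IFN interactions, and, added after the values were seen, 12 h against 8 h. Figures used matplotlib 3.10.9 in Python 3.11.15. The fit was tested on simulated data.

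Besides the 9 genes and BOP1, the text names, per list, up to 3 genes with the largest mean IFN difference among those called in at least 2 of the 4 IFN comparisons, every list gene called in a BOP1 siRNA comparison, and the 3 genes with the highest r. RIPK1, BIRC2, CYLD, RNF31, RBCK1, FADD, BAD, BID, BCL2A1 and CASP9 and the untested list genes were named after their values were seen. Results for some genes of the lists are not reported here.

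Libraries of the same number deviated together: over 8 comparisons of 2 groups and 3 numbers, the correlation across genes of deviations from the group means was 0.115 to 0.508. With the numbers 1 and 2 alone it was -0.012 to 0.156 and passed 0.1 in 3 of 8. The numbers of 16 columns match labelled replicates, and those of the other 8 (number 4) do not. Alternatives were a pseudocount of 0.1, 2 other filters, median-of-ratios and quantile scaling, no trend, only the groups compared, the library number as a replicate block, the libraries numbered 1 and 2 alone, and leaving out each library.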

Additional observations from a re-analysis of the deposited data

How the results depend on the processing

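The IFN differences of the 8 tested genes are a description, since the genes were chosen with them known. That of TNFRSF10B changed sign: in siFLuc cells at 8 h to -0.0226 with quantile normalization and -0.00646 with the libraries numbered 1 and 2 only, and in siBOP1 cells at 12 h to 0.0674 with median-of-ratios rescaling, also with the replicate block, and to 0.0784 with the libraries numbered 1 and 2 only. Leaving out 1 library at a time, it ran from -0.0593 to 0.11 (siFLuc 8 h), -0.13 to 0.35 (siFLuc 12 h) and -0.15 to 0.20 (siBOP1 12 h). Leave-one-out ranges that crossed 0 were also -0.11 to 0.25 for the siRNA difference of CFLAR in mock cells at 12 h, -0.0746 to 0.28 for its siRNA by IFN interaction at 12 h (-0.00127 with the libraries numbered 1 and 2 only), and -0.0692 to 0.54 for the siRNA difference of TNFRSF10D in mock cells at 8 h.

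With the replicate block, the siRNA comparisons called 1 and 1 of the 8 tested genes in mock cells (8 h, then 12 h). In IFN cells at 8 h the block called 1. With the block and rescaling these counts were 1, 1 and 2. With the libraries numbered 1 and 2 only, 1 was called under IFN at 8 h (CFLAR) and 1 in each time by IFN interaction (TNFRSF10D). The share of all genes called in that fit is not given. Of the 55 list genes, the block called 30 in siBOP1 cells at 12 h under IFN, against 19 without it. For the siRNA comparisons in the order mock 8 h, mock 12 h, IFN 8 h, IFN 12 h, the block called 5, 5, 8 and 3 list genes and the block with rescaling 5, 5, 9 and 2, against 0, 2, 2 and 0. In mock cells at 8 h, 1 was called with the filter at a mean of 5 TPM and 2 each with median-of-ratios rescaling, quantile normalization and the libraries numbered 1 and 2 only. In mock cells at 12 h, 0 were called with no filter on low values and with only the groups compared, 1 without the trend and with the libraries numbered 1 and 2 only, and 4 with quantile normalization. Under IFN at 8 h, 4 were called with rescaling, 1 with only the groups compared and 6 with the libraries numbered 1 and 2 only. Leave-one-out counts were 0 to 1, 0 to 1 and 1 to 2 for these 3. Outside the main fit and the block alone, the share of all genes called is not given. The counts above from other settings are therefore a description. The causes were not tested. Depth is unknown, which limits what can be said of TNFRSF10C and of mock XAF1 and TNFSF10.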
